A study of Mus musculus with 8 samples.

Results

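The comparison described here set CLT of *Med1* cKO mice against CLT of Ctrl littermates, CLT being the cervical loop tissue of the incisor that holds the progenies of the dental epithelial stem cells. Genes were taken across the whole transcriptome, and 13426 of 23358 were kept because their RPKM reached 1 in 2 or more of the 4 CLT libraries. RPKM counts the reads on a gene relative to its length and to the depth of its library. In the cKO mice, Cre recombinase under the *Krt14* promoter, which is active in epithelial cells, removes floxed exons of *Med1*, and the Ctrl mice lacked Cre. All mice were C57BL/6 and 4 weeks old, and the tissue of several mice was pooled within a litter without regard to sex. Each group had 2 libraries, named Ctrl CLT 1 and 2 and cKO CLT 1 and 2, and CLH, the neighbouring tissue that holds the stem cells, was sampled with 2 libraries of each genotype as well. The duplicates are biological and came from independent litters, so the p-values measure the spread between pools of 2 litters.

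The incisor of the mouse grows throughout life. In the cervical loop, stem cells give rise to ameloblasts, which secrete an enamel matrix of amelogenin, ameloblastin and enamelin. In the later maturation stage the same cells remove this matrix with proteases while calcium and phosphate are brought in. Odontoblasts, which are mesenchymal, deposit the dentin. Med1 is a subunit of Mediator, the complex that links transcription factors bound at enhancers to RNA polymerase II. Epidermis and hair follicle are other fates of ectodermal epithelium, and they build a cornified envelope, hair keratins and the inner root sheath, a layer that moulds the growing hair.

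The 4 CLT libraries held 22554294 to 24951483 reads on genes. *Med1* (chromosome 11, 98152155 to 98193293, mm10) had RPKM values of 4.83 and 8.71 in Ctrl against 9.15 and 8.96 in cKO, so it was not lower in the libraries labelled cKO (adjusted p = 0.356, limma, log2 fold change 0.42 ± 0.30 SE). The table gives 1 value per gene, and reads of the removed exons cannot be told apart from the others. The labels are used here as given. The dental markers *Amelx*, *Dspp* and *Calb1* were high in both Ctrl libraries and nearly absent from both cKO libraries, with values below. Sex-linked genes set Ctrl CLT 2 apart. The Y-linked *Ddx3y* stood at 4.40 and 18.1 in Ctrl against 4.98 and 4.11 in cKO, and *Xist*, transcribed from the inactive X chromosome, at 18.7 and 1.02 in Ctrl against 21.8 and 19 in cKO. Their part in the results below was not tested. The Ctrl CLT libraries differed from each other far more than other replicates did. Between Ctrl CLT 1 and 2, 14.3% of genes were more than 2-fold apart, against 0.179% between cKO CLT 1 and 2 and 0.246% and 0.268% in the CLH pairs. The median absolute difference on the log2(RPKM + 1) scale was 0.40 in the Ctrl CLT pair and 0.11 in the cKO CLT pair. List medians are therefore given against Ctrl CLT 1 and Ctrl CLT 2 as well as against both, and single genes by their value in each library. Against Ctrl CLT 1 alone *Med1* was higher by 0.79 on the log2 scale (adjusted p = 0.00075, limma), and against Ctrl CLT 2 alone its log2 fold change was 0.05 (adjusted p = 0.722, limma). In tissue RNA, fewer cells of a type and less RNA per cell cannot be told apart.

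Against both Ctrl libraries, 13 genes (0.0968% of those tested) were higher and 248 (1.85%) were lower in cKO CLT at an adjusted p under 0.05 by limma on log2(RPKM + 1). Unadjusted p-values under 0.05 were found for 2798 higher and 2229 lower genes. Against Ctrl CLT 1 alone, 4397 genes (32.7%) were higher and 3141 (23.4%) lower. Against Ctrl CLT 2 alone, 4559 (34.0%) were higher and 4999 (37.2%) lower. In these single tests the spread came from the cKO pair, and the lone Ctrl library was assumed to vary like it. All 261 genes called against both were also called against each Ctrl library alone. They had a median absolute difference of 0.30 between Ctrl CLT 1 and 2, whereas it was 1.18 in the 1565 genes that lay at least 2-fold from both Ctrl libraries without being called. Counted without a test, both cKO libraries lay at least 2-fold above both Ctrl libraries for 969 genes (7.22%) and at least 2-fold below both for 857 (6.38%). With no limit on the fold, 5222 genes (38.9%) lay above and 4485 (33.4%) below without overlap of the groups. The counts of list members above or below both Ctrl libraries given below are to be read beside these 2 shares. Shares given below as of all genes are shares of the 13426 genes tested, whereas the list counts also hold members that were not tested. Over all 23358 genes, 6675 lay above and 5820 below. When cKO CLT 1 or cKO CLT 2 was left out, the calls fell to 0 higher and 9 lower genes, in each case *Alpl*, *Ambn*, *Amelx*, *Amtn*, *Bglap*, *Calb1*, *Dspp*, *Enam* and *Klk4*.

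Of the 13426 genes, 11337 had an RPKM of 1 or more in all 4 libraries. In contrast, 577 reached it in both Ctrl libraries and in neither cKO library, and 389 in both cKO libraries and in neither Ctrl library, so these passed the limit through the group in which they were high. Among the 577 were *Enam*, *Dspp*, *Calb1*, *Klk4*, *Bglap* and other genes called lower below. A further 796 genes reached it in all libraries but Ctrl CLT 2.

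**Figure D1:**
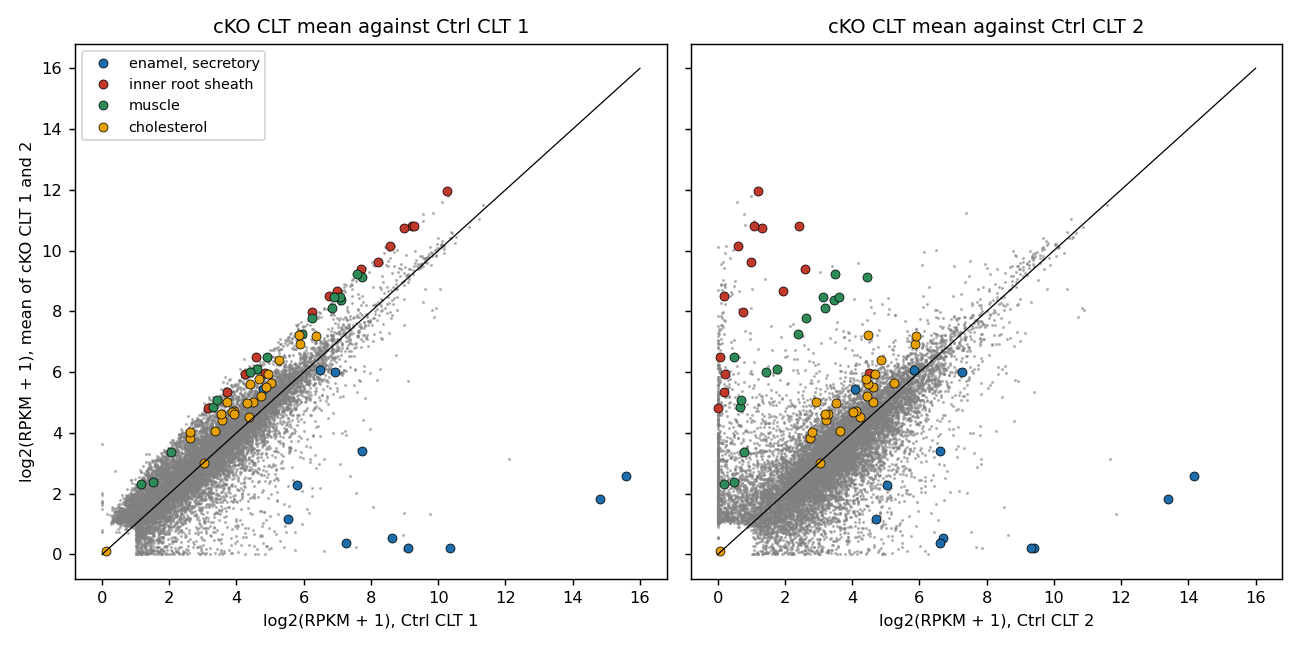
Mean log2(RPKM + 1) of the 2 cKO CLT libraries (vertical axis) against Ctrl CLT 1 (left) and Ctrl CLT 2 (right), with 1 grey point per gene tested, the members of 4 gene lists coloured and a line of equal values. Most secretory enamel genes lie far below the line in both panels, while inner root sheath and muscle genes lie a short way above it against Ctrl CLT 1 and far above it against Ctrl CLT 2.

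Genes of enamel secretion had the widest differences of the comparison. *Amelx* (chromosome X, 169176114 to 169187209), which encodes amelogenin, had RPKM values of 48798 and 18602 in Ctrl against 6.57 and 3.68 in cKO. The groups did not overlap, and the cKO mean was 6579.9-fold lower (adjusted p = 0.0202, limma, log2 fold change -12.31 ± 0.57 SE). *Ambn*, which encodes ameloblastin, stood at 28838 and 10887 in Ctrl against 3.45 and 1.78 in cKO, a 7597-fold lower mean (adjusted p = 0.0202, limma, log2 fold change -12.30 ± 0.57 SE). *Enam*, which encodes enamelin, stood at 1309 and 684 in Ctrl against 0.234 and 0.0935 in cKO, a 6088-fold lower mean. In both genes the cKO values were a small fraction of either Ctrl value. The values of the matrix protease *Mmp20* were 152 and 96.5 in Ctrl against 0.348 and 0.280 in cKO. Those of the phosphatase *Acpt*, now named *Acp4*, were 389.9 and 104 in Ctrl against 0.558 and 0.373 in cKO. In these 5 genes Ctrl CLT 1 was above Ctrl CLT 2, and the log2 fold change against either one lay between -6.17 and -13.0. *Fam20c*, the kinase that phosphorylates enamel proteins, fell from 45 and 25.3 to 1.26 and 1.25 (adjusted p = 0.0357, limma, log2 fold change -3.95 ± 0.32 SE). Its partner *Fam20a*, a pseudokinase, fell by 3.12 on the log2 scale (adjusted p = 0.0442, limma). *Lamb3*, a chain of the laminin that anchors ameloblasts, fell from 211 and 96.1 to 9.15 and 10.3 (adjusted p = 0.0476, limma, log2 fold change -3.75 ± 0.42 SE).

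Of the 12 secretory enamel genes, 9 were called lower, *Dspp* among them, and 0 higher, beside 1.85% and 0.0968% of all genes. *Enam*, *Dspp*, *Mmp20* and *Acpt* were under 1 RPKM in both cKO libraries, so they entered the test through Ctrl only. Their median log2 fold change was -5.24 against both Ctrl libraries, -5.61 against Ctrl CLT 1 and -4.85 against Ctrl CLT 2, beside 0.03, 0.10 and -0.04 over all genes tested. The other members were *Sp6*, *Col17a1* and *Tuft1*. The transcription factor *Sp6* had values of 120.0 and 153 in Ctrl against 64.5 and 63.2 in cKO, below both Ctrl libraries without passing. *Col17a1*, a collagen of hemidesmosomes, had 89 and 56.3 in Ctrl against 63 and 69.5 in cKO, so that the groups overlapped. *Tuft1*, tuftelin, was higher in both cKO libraries with 26.9 and 16 in Ctrl against 43.6 and 42 in cKO, with an adjusted p of 0.0967 by limma.

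Genes of enamel maturation were lower as well. *Amtn* encodes amelotin, a protein of the lamina that mature ameloblasts lay on enamel, and its values were 4429 and 3246 in Ctrl against 6.88 and 8.72 in cKO (adjusted p = 0.00798, limma, log2 fold change -8.76 ± 0.23 SE). *Odam*, another protein of that lamina, had 871 and 3671 in Ctrl against 2.01 and 1.14 in cKO, with Ctrl CLT 1 well below Ctrl CLT 2 and both far above cKO. *Klk4*, the protease that clears the enamel matrix, had 187 and 206 in Ctrl against 0.231 and 0.119 in cKO (adjusted p = 0.00500, limma, log2 fold change -7.39 ± 0.15 SE). Transporters of mineral ions and citrate were among the called genes. The citrate transporter *Slc13a5* had 42.7 and 58.3 in Ctrl against 0.927 and 0.897 in cKO. The calcium exchanger *Slc24a4* had 50.0 and 81.2 in Ctrl against 4.09 and 4.99 in cKO. Of the 12 maturation genes, 6 were called lower and 0 higher, with a median of -3.06 against both Ctrl libraries, -2.92 against Ctrl CLT 1 and -3.49 against Ctrl CLT 2. Of the called genes, *Klk4* and *Slc13a5* were under 1 RPKM in both cKO libraries, so they entered the test through Ctrl only. *Wdr72*, required for endocytosis by ameloblasts, had 3.86 and 10.7 in Ctrl and no read in cKO, but did not pass (adjusted p = 0.0607, limma). *Fam83h*, whose mutation causes hypocalcified enamel, was the highest of the list at 11.9 and 3.76 in Ctrl against 27.5 and 30.7 in cKO and did not pass either.

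Dentin and bone genes are known mainly from mesenchymal cells, in which *Krt14* is not active, and most of them were lower in both cKO libraries than in both Ctrl libraries. *Dspp* is also on the list of secretory enamel genes, and *Alpl* on that of the stratum intermedium, an epithelial layer. The values therefore do not tell in which cells these genes differed. *Dspp* (chromosome 5, 104170712 to 104180127), whose product gives the main non-collagenous proteins of dentin, had values of 543 and 644 in Ctrl against 0.145 and 0.174 in cKO, a 3726-fold lower mean (adjusted p = 0.00500, limma, log2 fold change -9.0 ± 0.16 SE). *Bglap*, osteocalcin, had 490.4 and 397 in Ctrl against 0.686 and 0.411 in cKO (adjusted p = 0.00602, limma, log2 fold change -8.16 ± 0.19 SE). *Alpl*, the phosphatase that frees phosphate for mineral, had 264 and 369 in Ctrl against 1.94 and 1.97 in cKO (adjusted p = 0.0134, limma, log2 fold change -6.73 ± 0.21 SE). In these 3 genes the Ctrl libraries lay within 1.5-fold of each other. *Ibsp*, bone sialoprotein, had 22.4 and 75.6 in Ctrl and no read in cKO, so its mean was at least 883-fold lower, set against a floor of 3 reads per library. *Spp1*, osteopontin, had 52.2 and 185 in Ctrl against 0.839 and 0.531 in cKO. The osteoblast and odontoblast factor *Sp7* had 29 and 63.8 in Ctrl against 0.187 and 0.241 in cKO. In *Ibsp*, *Spp1* and *Sp7*, Ctrl CLT 1 was the lower Ctrl library. *Bglap2*, *Dmp1* and *Phex*, which also act in mineralized matrix, fell by 4.10, 4.06 and 4.06 on the log2 scale. Type I collagen, common to many connective tissues, differed less. *Col1a1* had 1067 and 1335 in Ctrl against 376 and 472 in cKO (adjusted p = 0.0593, limma), and *Col1a2* had 674 and 831 in Ctrl against 639 and 699.6 in cKO. Of 18 genes, 16 were tested, and 9 were called lower and 0 higher. Of the called genes, *Dspp*, *Bglap*, *Ibsp*, *Spp1*, *Sp7*, *Dmp1* and *Phex* were under 1 RPKM in both cKO libraries. These therefore entered the test through Ctrl only. In all, 16 of the 18 lay below both Ctrl libraries in both cKO libraries, as did 33.4% of all genes. The median was -3.97 against both Ctrl libraries, -3.31 against Ctrl CLT 1 and -4.40 against Ctrl CLT 2.

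*Calb1* (chromosome 4, 15881264 to 15906709), the calcium buffer of ameloblasts, had values of 504 and 614 in Ctrl against 0.162 and 0.0639 in cKO, a 4956-fold lower mean (adjusted p = 0.00500, limma, log2 fold change -8.97 ± 0.17 SE). Among 15 genes of calcium transport, 12 were tested and 3 were called lower, *Calb1*, *Slc24a4* and *Itpr1*, beside 1.85% of all genes. *Calb1* was under 1 RPKM in both cKO libraries and entered the test through Ctrl only. *Itpr1*, a calcium release channel of the endoplasmic reticulum, had 25.2 and 15.8 in Ctrl against 1.62 and 1.78 in cKO. In all, 11 of the 15 lay below both Ctrl libraries, beside 33.4% of all genes. *Trpm7*, a channel for magnesium and calcium, had 65.4 and 140.1 in Ctrl against 11.6 and 10.1 in cKO with an adjusted p of 0.0573 by limma. The pump *Atp2b4* was the highest of the list at 13.6 and 12.7 in Ctrl against 16.9 and 16.8 in cKO. The median of the list was -1.20 against both Ctrl libraries, -1.0 against Ctrl CLT 1 and -1.30 against Ctrl CLT 2.

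Promoters of the genes named by size of change were compared for short motifs, in windows from 250 bases before to 50 after the start site (RefSeq, GRCm38.p6). They were found for 16 of the 20 lower and 10 of the 20 higher genes. TATAAA on the gene's own strand, at 50 to 11 bases before the start, was held by 2 of 16 lower and 2 of 10 higher genes, beside 2.67% of 27025 promoters. TGTGGT, a core bound by RUNX factors, stood on either strand of the window in 4 of 16 and 3 of 10 genes, beside 17.0% of all. TGACTCA, bound by AP-1, stood in 1 of 16 and 3 of 10, beside 5.20%. The 4 stretches with TATAAA are printed since they show the same box before enamel and bone genes and before hair and skin genes. The box is in capitals and the letters run 5′ to 3′ on the gene's strand.
Amelx, chrX:169187223-169187252, minus strand: tgccctgcatgaTATAAAttggggcacaga
Bglap, chr3:88384476-88384505, minus strand: cagactagcggaTATAAAtgctactggacg
Krtap20-2, chr16:89205818-89205847, plus strand: ataaccctggcaTATAAAaggcccttggta
Cpa4, chr6:30568334-30568363, plus strand: cctcgggttcctTATAAAtactgcttgact

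The other genes among the 20 largest called decreases belong to cell adhesion and matrix. *Ctnna2*, an alpha-catenin known from neurons that links cadherins to actin, had values of 96.8 and 70.3 in Ctrl against 0.0605 and 0.107 in cKO, a 1001-fold lower mean (adjusted p = 0.0167, limma, log2 fold change -6.27 ± 0.22 SE). *Col11a2*, a chain of a cartilage collagen, had 43.8 and 85.4 in Ctrl against 0.585 and 0.765 in cKO. *Tnn*, tenascin N, a matrix protein of bone and tooth, had 26.5 and 43.8 in Ctrl against 0.282 and 0.309 in cKO. In all 4 genes, *Susd5* included, the Ctrl libraries lay within 2-fold of each other. *Susd5*, which encodes a protein with a sushi domain, had 41.7 and 24.2 in Ctrl against 0.203 and 0.180 in cKO. Against either Ctrl library the 4 log2 fold changes lay between -4.40 and -6.50.

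**Figure D2:**
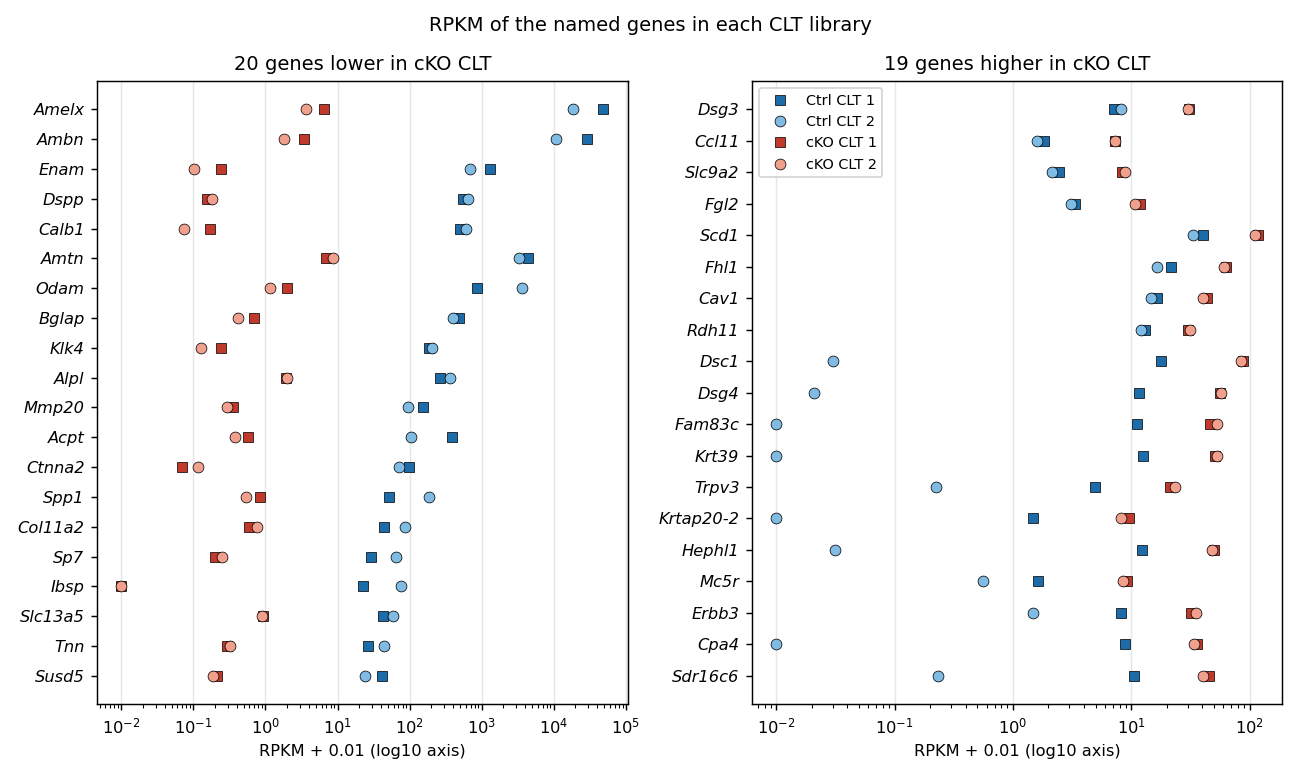
RPKM + 0.01 (log10 axis) in each of the 4 CLT libraries for 20 genes with the largest gap below (left) and 19 above (right) both Ctrl libraries, blue for Ctrl and red for cKO, squares for replicate 1 and circles for replicate 2. On the left all 20 genes passed the threshold. On the right the first 8 passed, and from *Dsc1* downwards, *Mc5r* excepted, Ctrl CLT 1 lies nearer to the cKO libraries than to Ctrl CLT 2 on the log axis.

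Genes that make and fold secreted proteins leaned lower by small amounts, without calls. Among 35 genes of translocation into the endoplasmic reticulum, folding and export, both cKO libraries lay below both Ctrl libraries for 25 and above both for 2, beside 33.4% and 38.9% of all genes, and 0 were called. The median was -0.47 against both Ctrl libraries, -0.38 against Ctrl CLT 1 and -0.67 against Ctrl CLT 2. The lowest was *Surf4*, a cargo receptor of the endoplasmic reticulum that carries amelogenin among other proteins, with 198 and 143 in Ctrl against 53 and 53.1 in cKO (adjusted p = 0.0550, limma). *Creld2*, a foldase induced by stress, was the highest with 21.7 and 15.9 in Ctrl against 23.2 and 25.6 in cKO. Genes of the response to stress of this compartment and to lack of amino acids leaned the other way, with 12 of 16 above both Ctrl libraries, beside 38.9% of all genes, 0 called and a median of 0.66 (0.46 and 0.79 against Ctrl CLT 1 and 2). Their highest was *Chac1*, which degrades glutathione, with 17.4 and 3.23 in Ctrl against 46.5 and 52.1 in cKO (adjusted p = 0.105, limma).

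Enzymes that modify collagen leaned lower, with 2 calls. *Plod2*, a lysyl hydroxylase that sets the crosslinks of mineralized collagen, fell from 134 and 228 to 7.65 and 6.31 (adjusted p = 0.0304, limma, log2 fold change -4.46 ± 0.31 SE). The prolyl hydroxylase subunit *P4ha2* fell from 71.4 and 78.8 to 10.7 and 10.7 (adjusted p = 0.0208, limma, log2 fold change -2.70 ± 0.14 SE). Of 21 such genes, these 2 were called and 0 were called higher, and 17 lay below both Ctrl libraries, with a median of -1.20 against both Ctrl libraries, -0.95 against Ctrl CLT 1 and -1.44 against Ctrl CLT 2. The procollagen protease *Adamts14* was the highest at 1.66 and 1.99 in Ctrl against 2.56 and 2.61 in cKO.

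Among genes of the basement membrane and of the cells on it, integrins leaned lower and basal epithelium leaned higher. The plakin *Dst*, which ties keratin to hemidesmosomes, fell from 13 and 11.2 to 3.05 and 3.01 (adjusted p = 0.0442, limma, log2 fold change -1.70 ± 0.17 SE). Among 20 integrins, *Itgb6*, whose loss impairs enamel maturation, had 11.6 and 13.4 in Ctrl against 2.35 and 2.57 in cKO. *Itgb5* had 62.8 and 60.6 in Ctrl against 24.4 and 27 in cKO, and these 2 were called lower. The lowest by fold change, *Itga4* (2.51 and 13.7 in Ctrl against 0.570 and 0.403 in cKO), and the highest, the muscle integrin *Itga7* (2.25 and 1.28 in Ctrl against 4.74 and 5.34 in cKO), did not pass. Of the 20 integrins, 14 lay below and 2 above both Ctrl libraries, beside 33.4% and 38.9% of all genes. The integrin median was -0.75 against both Ctrl libraries, -0.55 against Ctrl CLT 1 and -0.75 against Ctrl CLT 2. In basal epithelium, 1 gene of 16 was called lower, while 12 lay above both Ctrl libraries and the median was 0.82 against both Ctrl libraries, 0.60 against Ctrl CLT 1 and 1.16 against Ctrl CLT 2. *Ovol1*, a repressor active in differentiating epidermis, was the highest with 16.9 and 1.02 in Ctrl against 58.6 and 61.2 in cKO, and *Krt14*, whose promoter drives Cre here, had 543 and 275 in Ctrl against 558 and 649 in cKO.

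Ion channels went in both directions. *Kcnn4*, a potassium channel opened by calcium, fell from 23.2 and 40.3 to 0.193 and 0.0900 (adjusted p = 0.0304, limma, log2 fold change -4.79 ± 0.32 SE). The leak channel *Kcnk1* fell from 36.2 and 45.9 to 2.37 and 2.38 (adjusted p = 0.0208, limma, log2 fold change -3.63 ± 0.19 SE). At the other end, *Aqp3*, the water and glycerol channel of epidermis, had 13.4 and 0.0640 in Ctrl against 40.0 and 39.2 in cKO (adjusted p = 0.154, limma). Of 31 channels, these 2 were called lower and 0 higher, 21 lay above and 8 below both Ctrl libraries, and the median was 0.46 (0.39 and 0.54 against Ctrl CLT 1 and 2). Single enzymes of energy metabolism and of defence against oxidation were also called lower. *Ldhb*, a lactate dehydrogenase subunit, fell from 287 and 455 to 52.2 and 51.8 (adjusted p = 0.0429, limma, log2 fold change -2.77 ± 0.27 SE), while the 23 glycolysis genes had a median of 0.09 (0.19 and -0.09 against Ctrl CLT 1 and 2). The creatine kinase *Ckb* had 248 and 127 in Ctrl against 14.8 and 18.4 in cKO and was called lower. Its muscle relative *Ckm*, in contrast, had 75 and 5.18 in Ctrl against 200.4 and 239.6 in cKO. The secreted glutathione peroxidase *Gpx3* had 150.0 and 313 in Ctrl against 15.5 and 16.2 in cKO and was called, as was the superoxide dismutase *Sod1* with 152 and 160.2 in Ctrl against 61.2 and 67.2 in cKO. As lists these genes did not lean lower. Of 23 genes of glutathione and defence against oxidation, 10 lay above and 10 below both Ctrl libraries, with a median of 0.06 (0.02 and 0.09 against Ctrl CLT 1 and 2). The 18 glycogen and creatine genes had a median of 0.19 (0.13 and 0.12).

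The 8 named genes described here that rose past the threshold were of moderate size and nearly equal in the Ctrl libraries. A wide Ctrl pair raises the error of the test, so near equality there goes with being called. *Dsg3*, the desmosomal cadherin of basal stratified epithelium, had values of 7.15 and 8.24 in Ctrl against 31 and 30.1 in cKO, a 3.98-fold higher mean (adjusted p = 0.0357, limma, log2 fold change 1.86 ± 0.15 SE). The eosinophil chemokine *Ccl11* had 1.82 and 1.58 in Ctrl against 7.35 and 7.31 in cKO (adjusted p = 0.0443, limma, log2 fold change 1.63 ± 0.17 SE). These genes belong to unlike cell types, and so do the next. *Scd1*, a stearoyl-CoA desaturase abundant in sebaceous glands, had 40.7 and 33.3 in Ctrl against 119 and 112 in cKO (adjusted p = 0.0443, limma, log2 fold change 1.62 ± 0.17 SE). *Fhl1*, a LIM protein abundant in muscle, had 21.9 and 16.4 in Ctrl against 63.2 and 60.4 in cKO (adjusted p = 0.0496, limma, log2 fold change 1.65 ± 0.19 SE). The caveolar coat protein *Cav1* had 16.5 and 14.7 in Ctrl against 43.3 and 40.8 in cKO. Lower levels, yet the same order of the libraries, were found for *Slc9a2* and *Fgl2*. The sodium and proton exchanger *Slc9a2* had 2.43 and 2.14 in Ctrl against 8.37 and 8.84 in cKO. *Fgl2*, a fibrinogen-like protein, had 3.31 and 3.11 in Ctrl against 11.8 and 10.7 in cKO. *Rdh11*, a retinal reductase, had the smallest change of the 8 with 13 and 12.1 in Ctrl against 30.1 and 31.3 in cKO (adjusted p = 0.0485, limma, log2 fold change 1.22 ± 0.14 SE). Over the 8 genes the log2 fold change lay between 1.18 and 1.95 against Ctrl CLT 1 and between 1.27 and 1.85 against Ctrl CLT 2. Also called were *Tfap2a*, which is on the study's own lists, the short *Mir10a* and *Mir1949*, and a gene whose name stands on more than 1 line of the table. None of the 8 was called when 1 cKO library was left out, when low values were not filtered, or by voom on the recovered reads.

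The next 11 genes by distance from both Ctrl libraries did not pass against both. Their log2 fold changes ran from 1.87 (*Cpa4*) to 2.21 (*Dsc1*) against Ctrl CLT 1. Against Ctrl CLT 2 they ran from 2.68 (*Mc5r*) to 6.41 (*Dsc1*). The 11 genes were picked for this distance, so its size largely follows from the choice. *Dsc1*, a desmocollin of upper epidermis, had 17.8 and 0.0199 in Ctrl against 87.5 and 84.3 in cKO (adjusted p = 0.125, limma). *Dsg4*, the desmoglein of the hair shaft, had 11.7 and 0.0108 in Ctrl against 56.3 and 57 in cKO. *Krt39*, a hair keratin, had 12.6 and 0 in Ctrl against 51.2 and 53.1 in cKO. In all 3 the values in Ctrl CLT 2 were at or near 0 and those in Ctrl CLT 1 intermediate. *Hephl1*, an oxidase that depends on copper, had 12.2 and 0.0214 in Ctrl against 49.7 and 48.1 in cKO. *Cpa4*, a carboxypeptidase, had 8.86 and 0 in Ctrl against 36 and 34 in cKO. *Sdr16c6*, which acts on retinoids and lipids, had 10.6 and 0.223 in Ctrl against 45.5 and 40.1 in cKO, and *Fam83c* had the same order with 11.2 and 0 in Ctrl against 46.5 and 52.8 in cKO. Receptors and channels of skin were among the 11 too. *Mc5r*, the melanocortin receptor of sebaceous glands, had 1.62 and 0.550 in Ctrl against 9.27 and 8.58 in cKO and the smallest adjusted p of the 11 (0.0573, limma). *Trpv3*, a heat-gated channel of keratinocytes, had 4.90 and 0.216 in Ctrl against 21.5 and 23.5 in cKO. *Erbb3*, a neuregulin receptor, had 8.14 and 1.48 in Ctrl against 31.8 and 35.5 in cKO, and *Krtap20-2*, a keratin-associated protein, had 1.47 and 0 in Ctrl against 9.55 and 8.24 in cKO.

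Hair genes showed this order of libraries as whole lists. In the inner root sheath list, *Krt71* had 1229 and 1.30 in Ctrl against 3726 and 4189 in cKO, the widest difference of the list. *Tchh*, trichohyalin, had 509 and 1.48 in Ctrl against 1636 and 1801 in cKO. All 15 members lay above both Ctrl libraries, as did 38.9% of all genes, and 0 were called against both, with a median of 4.47 against both Ctrl libraries, 1.68 against Ctrl CLT 1 and 7.21 against Ctrl CLT 2. In the hair shaft list, *Krt33a* was the highest with 262 and 0.112 in Ctrl against 763 and 804 in cKO. The factor *Msx2* was the lowest with 78.8 and 89.9 in Ctrl against 76.3 and 70.4 in cKO. Of these 18 genes 17 lay above both Ctrl libraries, 0 were called, and the median was 4.38 against both Ctrl libraries, 1.52 against Ctrl CLT 1 and 7.18 against Ctrl CLT 2. Reads of hair keratins and keratin-associated proteins can be split between near-identical copies, so the values of single genes are uncertain.

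Over all 23358 genes, 160 had an RPKM of at least 10 in both cKO libraries and at most 3 reads in Ctrl CLT 2. In these, Ctrl CLT 1 stood at a median of 32.9% of the cKO mean, with quartiles of 29.5% and 35.1%. The reverse case, at most 3 reads in Ctrl CLT 1, was met by 1 gene. On the other side, 15 genes had an RPKM of at least 10 in Ctrl CLT 2 and at most 3 reads in each cKO library, and Ctrl CLT 1 stood at a median of 32.6% of Ctrl CLT 2 in them, with quartiles of 20.4% and 51.0%. Whether this position of Ctrl CLT 1 came with its tissue, its dissection or its library was not tested.

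**Figure D3:**
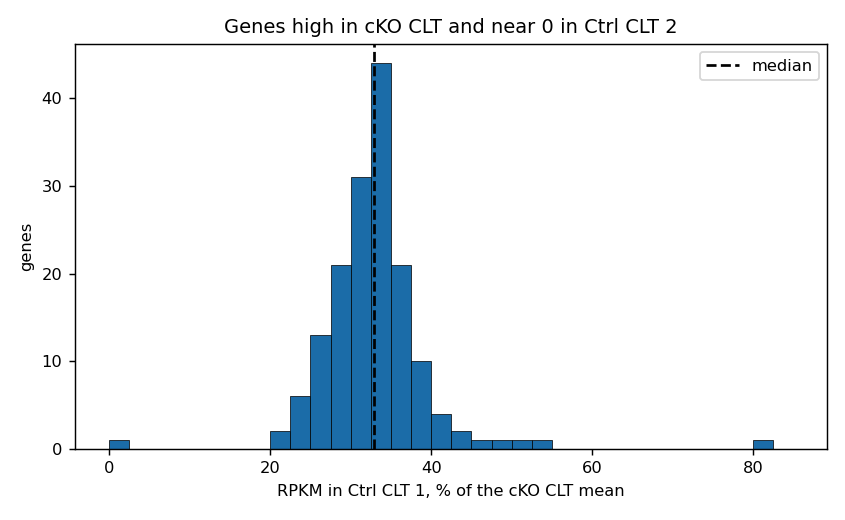
Histogram of the RPKM in Ctrl CLT 1 as a percentage of the cKO CLT mean, over the 160 genes that reached 10 RPKM in both cKO CLT libraries with at most 3 reads in Ctrl CLT 2. The dashed line is the median, 32.9%, and the middle part of the genes lies in a narrow band between 29.5% and 35.1%.

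The Ctrl libraries differed most in hair genes on one side and in mesenchymal genes among those on the other. The 10 genes furthest above in Ctrl CLT 1 were *Krtap7-1*, *Krtap8-1*, *Prr9*, *Sprr4*, *Krtap15*, *Krt25*, *Krtap22-2*, *Krtap11-1*, *Krt72-ps* and *Tchh*, most of them known from hair or cornified epithelium. *Krtap7-1* was the first of them with 1102 and 0.484 in Ctrl against 3023 and 3138 in cKO. Ctrl CLT 1 exceeded Ctrl CLT 2 by 7.68 to 9.54 on the log2(RPKM + 1) scale, and cKO exceeded Ctrl CLT 1 by a further 1.20 (*Krtap22-2*) to 1.75 (*Tchh*). The 10 genes furthest below were *Sfrp2*, *Omd*, *Pmch*, *Pcp4*, *Mmp13*, *Tac1*, *Olfr1372-ps1*, *Frem1*, *Dlx6as1* and *Hapln1*. *Sfrp2*, a secreted Wnt modulator, had 17 and 170.3 in Ctrl against 3.33 and 2.88 in cKO. *Omd*, osteomodulin of bone and tooth matrix, had 10.2 and 93.1 in Ctrl against 1.22 and 1.21 in cKO. *Mmp13*, a collagenase of mineralized tissue, had 31.8 and 232 in Ctrl against 0.160 and 0.137 in cKO. In all 10, Ctrl CLT 1 lay between Ctrl CLT 2 and cKO. None of these 20 genes was called against both. They were picked for the distance between the Ctrl libraries, which enters the error of that test, so this largely follows from the choice. All 20 were called against each Ctrl library alone, where that distance does not enter the error.

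Markers of other tissues had the same order. In skeletal muscle, *Myh4*, a fast myosin, had 29 and 0.413 in Ctrl against 87.3 and 92.3 in cKO. *Acta1*, actin of the sarcomere, had 189.8 and 10.3 in Ctrl against 551 and 659 in cKO. *Myh8*, the perinatal myosin, had the smallest difference with 1.85 and 0.416 in Ctrl against 3.99 and 4.37 in cKO. All 16 muscle genes lay above both Ctrl libraries, 0 were called, and their summed RPKM was 1139 and 84.9 in Ctrl against 3036 and 3288 in cKO. The median was 3.08 against both Ctrl libraries, 1.45 against Ctrl CLT 1 and 4.77 against Ctrl CLT 2. Fat cell genes lay above both Ctrl libraries in 12 of 12 cases with 0 calls and a summed RPKM of 275 and 16.8 in Ctrl against 748 and 695 in cKO. The fatty acid carrier *Fabp4* had 244 and 7.22 in Ctrl against 663 and 608 in cKO. *Plin1*, a coat protein of lipid droplets, had 0.339 and 0 in Ctrl against 1.15 and 1.26 in cKO. The fat cell median was 1.57 (1.14 and 2.0 against Ctrl CLT 1 and 2). What part the makeup of the dissected tissue had in these values was not tested.

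Sebaceous gland and pigment cell genes leaned the same way. Of 12 sebaceous genes, *Scd1* was called higher and 11 lay above both Ctrl libraries, with a median of 2.15 (1.34 and 2.67 against Ctrl CLT 1 and 2). *Elovl3*, which elongates fatty acids of sebum, had 10.6 and 0.160 in Ctrl against 36.8 and 34.2 in cKO. *Fads2* was the exception with 20.5 and 26.4 in Ctrl against 18 and 17.5 in cKO. Of 15 melanocyte genes, 12 lay above and 3 below both Ctrl libraries, 0 were called, and the median was 1.75 (1.24 and 2.17 against Ctrl CLT 1 and 2). *Gpnmb*, a glycoprotein of melanosomes and macrophages, had 54.6 and 3.47 in Ctrl against 176 and 186 in cKO. *Rab27a*, which carries melanosomes, was the lowest with 14.6 and 8.39 in Ctrl against 5.63 and 5.23 in cKO.

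Genes of the epidermal barrier were mostly higher without calls. Of 18 genes of plakins, desmosomes and cross-linking enzymes of the cornified envelope, 16 lay above both Ctrl libraries, and the 1 call was that of *Dst* in the lower direction. The transglutaminase *Tgm6* was the highest with 20.2 and 0.0114 in Ctrl against 65.9 and 72.5 in cKO. The median was 1.88 against both Ctrl libraries, 1.09 against Ctrl CLT 1 and 2.72 against Ctrl CLT 2. Of 19 cystatins, cathepsins and proteases of the skin, 15 lay above both and 0 were called. *Asprv1*, which processes filaggrin, had 139 and 0.540 in Ctrl against 387 and 421 in cKO. The lowest that was tested, *Cst3*, cystatin C, had 509.7 and 180.0 in Ctrl against 175 and 198 in cKO, and the median of the 19 was 1.43 (0.82 and 1.74 against Ctrl CLT 1 and 2). The S100 calcium-binding proteins did not move as 1 group. *S100a3*, abundant in the hair cuticle, had 747 and 1.11 in Ctrl against 1954 and 2102 in cKO. *S100a9*, abundant in neutrophils, had 115 and 28.9 in Ctrl against 13.6 and 16.8 in cKO, and the median of 14 was 0.18 (0.24 and 0.92 against Ctrl CLT 1 and 2).

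Cholesterol synthesis had a more even shift. Both cKO libraries lay above both Ctrl libraries for 22 of 24 genes, and the median was 1.04 against both Ctrl libraries, 0.83 against Ctrl CLT 1 and 1.11 against Ctrl CLT 2. *Hmgcs1*, a synthase early in the pathway, had 58.3 and 57.2 in Ctrl against 125 and 116 in cKO, with nearly equal Ctrl libraries. *Tm7sf2* was the lowest with 7.19 and 7.27 in Ctrl against 7.40 and 6.74 in cKO. None of the 24 was called against both, and the smallest adjusted p was that of *Hsd17b7* (0.0528, limma), with 5.14 and 5.95 in Ctrl against 15.7 and 14.9 in cKO. Against each Ctrl library alone, 21 were called higher and 0 lower, beside 32.7% and 34.0% of all genes called higher. *Scd1*, a lipid gene that is not on this list, was called as given above.

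**Figure D4:**
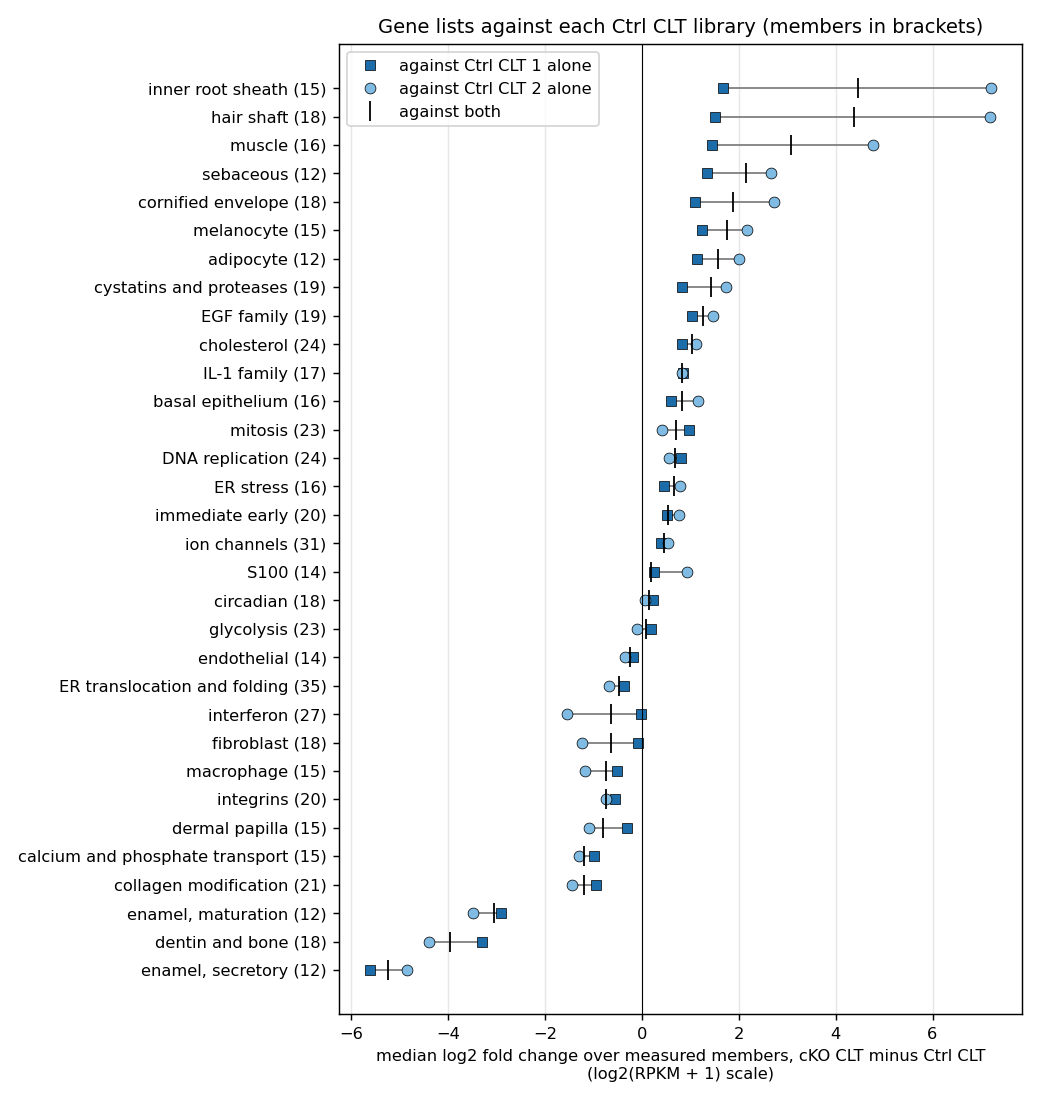
Median log2 fold change of cKO CLT over the measured members of 32 gene lists against Ctrl CLT 1 alone (squares), Ctrl CLT 2 alone (circles) and both (bars), on the log2(RPKM + 1) scale. Enamel and dentin lists lie between -2.92 and -5.61 whichever Ctrl library is used, the cholesterol list lies between 0.83 and 1.11, and the hair lists lie at 1.52 to 1.68 against Ctrl CLT 1 and at 7.18 to 7.21 against Ctrl CLT 2.

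Ligands and receptors of the EGF family leaned higher without calls. Among receptors, *Erbb3* had the values given above and *Egfr* had 7.71 and 3.35 in Ctrl against 20.4 and 19.3 in cKO. Among ligands, *Tgfa* had 9.54 and 2.09 in Ctrl against 31.5 and 31.4 in cKO. Betacellulin, *Btc*, had 0.986 and 0.994 in Ctrl against 3.97 and 3.12 in cKO and the smallest adjusted p of the list (0.0607, limma). The lowest was *Adam17*, the protease that sheds the ligands, with 13.5 and 19.8 in Ctrl against 13.9 and 12.8 in cKO. Of 19 genes, 16 lay above both Ctrl libraries and 0 were called, with a median of 1.26 against both Ctrl libraries, 1.04 against Ctrl CLT 1 and 1.47 against Ctrl CLT 2. In the interleukin-1 family, 14 of 17 measured genes lay above both and 0 were called, with a median of 0.82 (0.85 and 0.83 against Ctrl CLT 1 and 2). *Il1f5*, the antagonist of interleukin-36, had 6.13 and 0 in Ctrl against 20.7 and 22 in cKO. *Il1rn*, the interleukin-1 receptor antagonist, had 5.36 and 0.992 in Ctrl against 21.2 and 18.4 in cKO. *Il18bp*, which binds interleukin-18, was the lowest with 3.39 and 3.89 in Ctrl against 2.39 and 2.61 in cKO.

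Genes of the cell cycle leaned higher without calls, and more so against Ctrl CLT 1. Of 23 mitosis genes, 20 lay above both Ctrl libraries, 0 were called, and the median was 0.71 against both Ctrl libraries, 0.96 against Ctrl CLT 1 and 0.41 against Ctrl CLT 2. *Ube2c*, which acts in mitotic exit, was the highest with 19.6 and 16.8 in Ctrl against 41.5 and 39.3 in cKO. *Cenpe*, a kinetochore motor, was the lowest with 1.85 and 3.68 in Ctrl against 3.01 and 2.6 in cKO. Of 24 replication genes, 19 lay above both and 0 were called, with a median of 0.68 (0.81 and 0.55 against Ctrl CLT 1 and 2). The thymidine kinase *Tk1* was the highest with 17.6 and 12.8 in Ctrl against 36.4 and 38.7 in cKO. Immediate early genes had a median of 0.55 (0.52 and 0.77 against Ctrl CLT 1 and 2) with 0 of 20 called. Their highest was *Egr2* with 8.23 and 0.710 in Ctrl against 30.1 and 27.8 in cKO, and their lowest was *Ctgf*, a target of YAP, with 20.3 and 31.4 in Ctrl against 16.8 and 15.6 in cKO. Of 18 circadian genes, 9 lay above and 8 below both Ctrl libraries, beside 38.9% and 33.4% of all genes, and 0 were called, with a median of 0.14 (0.23 and 0.06 against Ctrl CLT 1 and 2). They ran from *Hlf* with 2.81 and 13.5 in Ctrl against 1.58 and 1.84 in cKO to *Nfil3* with 15.6 and 6.34 in Ctrl against 32 and 34.2 in cKO.

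Connective tissue, vessels and leukocytes gave smaller values. Of 15 macrophage genes, 13 lay below both Ctrl libraries and 0 were called, with a median of -0.75 (-0.52 and -1.19 against Ctrl CLT 1 and 2). *Mpeg1*, a pore-forming protein, had 5.76 and 13.1 in Ctrl against 2.53 and 2.47 in cKO. The scavenger receptor *Cd163* went the other way with 1.83 and 0.795 in Ctrl against 4.95 and 4.90 in cKO. The 14 endothelial genes had a median of -0.24 (-0.18 and -0.36 against Ctrl CLT 1 and 2) and 0 calls, the lowest being *Emcn*, endomucin, with 15.6 and 30.5 in Ctrl against 4.54 and 4.22 in cKO. In fibroblasts, where 0 of 18 were called, 10 lay below and 4 above both Ctrl libraries, beside 33.4% and 38.9% of all genes, with a median of -0.64 (-0.08 and -1.23 against Ctrl CLT 1 and 2). *Dpt*, dermatopontin, was the highest with 25 and 0.506 in Ctrl against 76.2 and 70.3 in cKO. Of 15 genes known from the dermal papilla, the mesenchyme at the base of the hair, *Wif1*, a Wnt inhibitor, was called lower with 152 and 221 in Ctrl against 14.6 and 14.3 in cKO (adjusted p = 0.0288, limma, log2 fold change -3.58 ± 0.23 SE). The list median was -0.81 (-0.31 and -1.08 against Ctrl CLT 1 and 2).

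Interferon-induced genes depended on the Ctrl library. *Oasl2* was the lowest with 3.28 and 14.6 in Ctrl against 0.864 and 0.842 in cKO. *Isg15*, a ubiquitin-like modifier, had 5.56 and 27.1 in Ctrl against 7.17 and 9.84 in cKO, so that Ctrl CLT 2 stood above the other libraries. Of the 27 genes 0 were called, and the median was -0.63 against both Ctrl libraries, -0.01 against Ctrl CLT 1 and -1.55 against Ctrl CLT 2. The other 22 lists held 2 called higher and 7 called lower genes, some on more than 1 list, and their medians lay between -0.88 and 0.59.

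In CLH, the same test called 0 genes in either direction by limma, with unadjusted p-values under 0.05 for 659 higher and 303 lower genes. It was run over the 13426 genes kept by their CLT values, so genes expressed in CLH alone were left out. By CLH values, 12953 genes would have reached the same limit. An interaction test over all 8 libraries asked whether the difference between cKO and Ctrl was the same in both tissues. It called 1195 genes (8.9%) with a higher and 1370 (10.2%) with a lower difference in CLT. The test took 1 spread over all groups, so its p-values assume that the Ctrl CLT pair varied like the other pairs. The median difference was 0.40 in the Ctrl CLT pair and 0.11 in the cKO CLT pair, so the error is set too small for Ctrl CLT. *Amelx* had CLH values of 10173 and 9794 in Ctrl against 9733 and 11044 in cKO, and its interaction was -12.36 ± 0.65 SE (adjusted p = 0.000586, limma). *Dspp* had 545 and 423 in Ctrl against 654 and 537 in cKO, with an interaction of -9.30 ± 0.23 SE (adjusted p = 7.19e-05, limma). *Calb1* had 159.6 and 175 in Ctrl against 156 and 149 in cKO, with an interaction of -8.84 ± 0.17 SE (adjusted p = 3.04e-05, limma). All 3 were thus expressed in the CLH libraries of both genotypes. The list medians in CLH were 0.28 for secretory enamel, 0.09 for dentin and bone, 0.03 for the inner root sheath, 0.03 for muscle and 0.11 for cholesterol synthesis. The interaction count rested on the libraries used. Without cKO CLT 1 it was 7 higher and 231 lower genes and without cKO CLT 2 it was 22 and 278, whereas it was 4037 and 4479 without Ctrl CLT 1 and 3798 and 2720 without Ctrl CLT 2.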

How the data were processed

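RNA-seq values of 8 libraries were used, 2 in each of 4 groups taken from the sample labels. The authors deposited 1 table of RPKM for 23358 genes, made from paired-end reads. The submitters' processing notes name FastQC 0.72, Trim Galore 0.4.3.1, RNA STAR 2.6.0b-1 with mm10, featureCounts 1.6.3 and DESeq2 2.11.40.2. The annotation and strand setting are not given in the sources used here, so overlapping and antisense genes cannot be told apart. Times gene length, 100.0% of the values were whole multiples of 1 read per library, within 0.05 read, which gave 26590000 to 29260000 reads in all per CLT library. A gene without a read in a library may hold up to 3 reads, a floor for counting error only.

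Genes that reached 1 RPKM in 2 or more of the 4 CLT libraries were tested on log2(RPKM + 1) with limma 3.58.1 in R 4.3.3 (eBayes with a variance trend, Benjamini-Hochberg adjustment, threshold 0.05). For genes of low level, log2 fold changes on this scale come out too small. Folds called N-fold are ratios of mean RPKM. The interaction used all 8 libraries. For 2 libraries against 2, the smallest exact permutation p is 0.333. On simulated data with 200 genes changed 2-fold, the test against both Ctrl libraries called 197 to 199 of them and 21 to 35 unchanged genes, over 13360 to 13366 genes in 3 draws. The simulation gave every library the same small spread, whereas the median difference was 0.40 in the Ctrl CLT pair and 0.11 in the cKO CLT pair. It therefore does not show what share of changed genes the test finds in these data. Tables were handled in Python 3.11.15 with pandas 2.3.3.

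The members, the 54 gene lists (1000 entries, 990 in the table, 22 by an older name), the tests and their alternatives were chosen with earlier results of these data known. List medians cover all measured members. Genes were named by rule. These were *Med1*, *Amelx*, *Dspp* and *Calb1*, and in each direction the 20 genes with the largest gap. The gap is the smallest of the 4 differences between a cKO and a Ctrl library, among genes past the threshold or, where fewer passed, with an unadjusted p under 0.05. Named too were the 10 genes at either end of the difference between the Ctrl libraries, and in each list the ends and the called members. Predicted gene models, genes of at most 200 bases, 26 names found on 69 lines of the table and genes named in the study's own lists were left out of the first 2 rules. Further members of a list, such as *Hmgcs1* or *Krt14*, were chosen after their values were seen. A few genes that these rules name are not reported here.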

Additional observations from a re-analysis of the deposited data

Results flagged for a closer look

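The difference between cKO and Ctrl was not the same in CLT as in CLH by the interaction test in limma, with 1195 genes higher and 1370 genes lower in CLT. These counts assume the same spread in all groups, while the Ctrl CLT libraries lay further apart than the other pairs. The interaction on the log2(RPKM + 1) scale was -12.36 for *Amelx*, -8.84 for *Calb1* and -9.30 for *Dspp*, and 2 of 2 cKO CLT libraries lay below both Ctrl CLT libraries for each. Groups of 2 libraries are too small to single out 1 library as an outlier, so none was tested in this way.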

How the results depend on the processing

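The count of genes called against both Ctrl libraries (13 higher, 248 lower) depended on several choices. It was 8 higher with a pseudocount of 0.1, 24 higher with median-of-ratios scaling, 0 higher and 35 lower with no filter on low values, 317 and 539 with an RPKM of at least 1 in all 4 libraries, 3385 and 2741 with all groups in 1 fit, and 0 and 0 by voom on recovered reads, where 2840 and 1929 genes had an unadjusted p under 0.05 and the smallest adjusted p was 0.0506. The stricter filter tested fewer genes and the joint fit took its spread from more libraries. Under the stricter filter, 5 of the 20 named lower genes were still called. The others did not reach an RPKM of 1 in both cKO libraries, so this filter left them untested. For the other settings the cause was not tested. A fit with the replicate number as a block gave 742 and 811, and the interaction then gave 563 higher genes. The numbers were not shown to pair the libraries, since the deviations of same-numbered libraries correlated at -0.203. A block with the numbers crossed, added after the data were seen, gave 0 and 8. Leaving out 1 library gave 0 to 4559 higher and 9 to 4999 lower genes, 7 to 4037 and 231 to 4479 for the interaction, and 1037 to 1903 and 944 to 2019 for genes at least 2-fold from both Ctrl libraries. That last count was 405 and 538 with an RPKM of at least 1 in all 4 libraries. Against Ctrl CLT 1 alone, no filter gave 2215 higher genes and a limit of 1 on the log2 fold change gave 1186 and 1044. Against Ctrl CLT 2 alone that limit gave 2032 and 2199.

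With a pseudocount of 0.1 the list medians moved to -6.42 (enamel secretion), -3.94 (maturation), -4.82 (dentin and bone), 2.08 (cystatins), 1.28 (interleukin-1), 1.62 (EGF), 0.88 (ion channels), 3.15 (fat) and 2.43 (melanocyte). With an RPKM of at least 1 in all 4 libraries they were -3.44 (enamel secretion), -1.29 (dentin and bone), 2.62 (fat), 1.47 (sebaceous) and 1.32 (hair shaft), and over tested members alone 1.17 (interleukin-1) and 1.55 (EGF). The filter drops members nearly absent from a library, such as *Dspp*, *Bglap*, *Ibsp*, *Spp1*, *Sp7*, *Dmp1* and *Phex* in dentin and bone and *Krt33a* in the hair shaft. Medians under it therefore cover fewer members, and a smaller value need not mean a smaller difference. Leaving out 1 library gave medians of -3.49 to -2.92 (maturation), -4.40 to -3.31 (dentin and bone), 0.46 to 0.79 (stress of the endoplasmic reticulum), -0.094 to 0.19 (glycolysis), 0.83 to 1.11 (cholesterol), 0.82 to 1.74 (cystatins), 0.23 to 0.92 (S100), 1.09 to 2.72 (plakins and envelope), -1.55 to -0.012 (interferon), 0.41 to 0.96 (mitosis), 1.45 to 4.77 (muscle), 1.34 to 2.67 (sebaceous), 1.52 to 7.18 (hair shaft), 1.68 to 7.21 (inner root sheath), -1.19 to -0.52 (macrophage), -1.23 to -0.085 (fibroblast) and -1.08 to -0.31 (dermal papilla). The glycolysis median changed sign without Ctrl CLT 1.

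For the genes named one by one, 349 values over the alternatives kept direction and side of the threshold, 45 gained a call, 114 lost one and 0 changed direction. Depth was similar in the 4 CLT libraries, while the median difference was 0.40 in the Ctrl pair and 0.11 in the cKO pair.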

Other observations

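Leukocyte subsets and lipid mediators not described above went in different directions, and no gene of the 2 paragraphs here was called against both Ctrl libraries other than *Enpp2* and *Rdh11*. Of 15 genes of neutrophils and mast cells, 7 lay above and 7 below both Ctrl libraries, beside 38.9% and 33.4% of all genes tested. The mast cell protease *Mcpt4* had RPKM values of 11.6 and 0.304 in Ctrl against 33 and 29.96 in cKO. *Cpa3*, the carboxypeptidase of mast cells, had 5.22 and 0.311 in Ctrl against 18.9 and 19.2 in cKO. The neutrophil granule gene *Ngp* had 24 and 6.96 in Ctrl and no read in cKO, and *Camp* had 19.7 and 4.52 in Ctrl against 0.298 and 0.184 in cKO. In both, Ctrl CLT 1 was the higher Ctrl library. The list median was 0.15 (-0.94 and 0.36 against Ctrl CLT 1 and 2).

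Among 29 genes of prostanoids and other lipid mediators, 15 lay above and 6 below both Ctrl libraries, beside the same shares of all genes, with a median of 0.45 (0.40 and 0.39 against Ctrl CLT 1 and 2). The epidermal lipoxygenase *Alox12e* had 14.1 and 0 in Ctrl against 45.2 and 48.5 in cKO. *Enpp2*, which makes lysophosphatidic acid, had 141 and 191 in Ctrl against 16 and 14.2 in cKO and was called lower (adjusted p = 0.0277, limma, log2 fold change -3.36 ± 0.21 SE). Among 22 retinoid genes, the ends were *Cyp26a1*, which degrades retinoic acid, with 10.1 and 35.1 in Ctrl against 0.421 and 0.391 in cKO, and *Sdr16c6* with 10.6 and 0.223 in Ctrl against 45.5 and 40.1 in cKO. The retinoid median was 0.17 (0.18 and 0.06 against Ctrl CLT 1 and 2). Of 43 axon guidance genes, 22 lay above and 16 below both Ctrl libraries, beside 38.9% and 33.4% of all genes, with a median of 0.38 (0.18 and 0.52 against Ctrl CLT 1 and 2). They ran from *Sema5a* with 16.8 and 32.1 in Ctrl against 3.13 and 2.26 in cKO to *Efna3* with 21.1 and 2.15 in Ctrl against 54.7 and 65.1 in cKO.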
